A study of Rattus norvegicus with 12 samples.

Results

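Cells hold peroxides and superoxide down with 2 linked thiol systems, built on thioredoxin and on glutathione, and with superoxide dismutase. Peroxiredoxins and glutathione peroxidases reduce peroxides, thioredoxin and glutathione supply the electrons, and NADPH-dependent reductases recharge them. Phagocytes in blood make superoxide themselves when they meet bacterial products, and many of these defence genes are targets of the transcription factor Nrf2, which binds with small Maf proteins at antioxidant response elements. The genes described here are 9 members of these systems, Prdx5, Txn1, Txnrd1, Gpx1, Gclm, Gstt1, Sod2, Blvra and Oplah. They were matched by gene symbol and had been chosen from their measured ratios at 6 h and 2 h after lipopolysaccharide (LPS). All 9 were found, each by 1 probe, among 3939 named genes on 7200 probes. Their ratios to control are therefore given as a description, without a test.

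Total RNA of rats labelled LPS, the endotoxin of Gram-negative bacteria, was hybridised with control RNA on 2-colour arrays. The series title names the tissue, blood. There were 3 rats at 6 h (labelled 2, 4 and 6) and 3 at 2 h (labelled 1, 2 and 3), each set against a pool of control RNA of its own time on a fluor array and a flip array, in which the channels are exchanged. The labels give no strain, sex, age, dose or route, do not say whether the animals or their drawn blood received LPS, and do not say whether the rat numbered 2 is the same animal at both times. A value is a log2 ratio of LPS to control pool, and a rat's value is the mean of its 2 arrays (n = 3 rats per time). Each pool is 1 control sample, so its own spread is not in any error below, and a difference between the times includes any difference between the pools. The ratio gives no absolute level, and in whole blood fewer cells of a type and less RNA per cell cannot be told apart.

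Reading positive values as higher after LPS is likely and not settled, since no dye is stated. Over all probes a rat's fluor array and its flip array correlated between -0.23 and 0.25, while arrays of 1 orientation correlated between 0.38 and 0.66. The direction rests on LPS-induced genes, of which the cytokine gene Il1b and the interferon response factor gene Irf1 lay above 0 on all 12 arrays. If the flip arrays had been deposited unturned, the response would instead be the mean of the fluor ratio and the flip ratio times -1, called the orientation term below and given for every member. The arrays could not show whether the RNA came from blood cells alone. Of the marker lists, 4 of 15 neutrophil genes were measured and averaged 0.81 to 1.12 per rat at 6 h and 0.95 to 1.17 at 2 h. These 4 genes were not alike, with means from -0.053 to 2.70 at 6 h (median 0.67) and from -0.083 to 2.98 at 2 h (median 0.66). The 9 of 20 erythroid genes averaged 0.016 to 0.28 at 6 h and 0.13 to 0.42 at 2 h. Single erythroid genes ran from -0.16 to 0.30 at 6 h and from -0.14 to 0.81 at 2 h. With limma's adjusted p under 0.05, 0 were higher and 2 lower at 6 h, where 8.3% of all genes were higher and 10.7% lower. At 2 h 4 were higher and 1 lower, where 9.34% of all genes were higher and 9.82% lower. T cell genes (4 of 13) averaged -0.40 to -0.14 at 6 h and -0.35 to -0.26 at 2 h, B cell genes (2 of 10) -0.43 to -0.38 and -0.33 to -0.23, and monocyte and macrophage genes (3 of 11) -0.29 to -0.11 and -0.29 to -0.15. Cytotoxic genes (4 of 11) averaged 0.42 to 0.58 at 6 h and 0.29 to 0.43 at 2 h, means led by Gzmc, with medians over the 4 genes of 0.12 and 0.21. Platelet genes (2 of 9) averaged -0.42 to -0.025 at 6 h and 0.071 to 0.38 at 2 h. The 2 genes were not alike at 6 h, with means of -0.39 and 0.022, against 0.18 and 0.34 at 2 h. Liver genes (12 of 15) averaged 0.038 to 0.11 at 6 h and 0.070 to 0.15 at 2 h. Single liver genes ran from -0.075 to 0.27 at 6 h (median 0.086) and from -0.14 to 1.44 at 2 h (median 0.044). The part of cell composition in the ratios below, and in their difference between the times, was not tested.

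RefSeq promoter windows of build GRCr8, 250 bases before to 50 bases after the annotated start, were available for 7 of the 9 genes in 8 windows. The antioxidant response element was searched as TGACNNNGC on both strands. It was present in windows of 5 genes, Prdx5, Gclm, Txnrd1, Sod2 and Blvra, and in 12.1% of all 33469 windows. A gene was counted if any of its windows held the letters, so counts of genes and this share of windows are unlike measures. These 5 matches are shown because Nrf2 binds such elements. Any link between the letters and the ratios below was not tested. Each match lay on the strand opposite to the gene, so that it reads GCNNNGTCA below, in capitals, with 20 bases on either side.
Prdx5 (chr1:213532000-213532048, minus strand): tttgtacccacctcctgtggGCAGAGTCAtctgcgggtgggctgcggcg
Gclm (chr2:213031943-213031991, plus strand): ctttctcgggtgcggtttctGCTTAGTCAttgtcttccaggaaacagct
Txnrd1 (chr7:22755954-22756002, minus strand): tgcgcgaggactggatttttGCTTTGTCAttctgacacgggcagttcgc
Sod2 (chr1:50050175-50050223, minus strand): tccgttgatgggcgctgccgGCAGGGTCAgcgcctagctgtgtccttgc
Blvra (chr3:134802745-134802793, plus strand): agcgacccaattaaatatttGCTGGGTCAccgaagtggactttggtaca

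The match began 172 bases before the annotated start in Gclm, 145 in Blvra, 78 in Txnrd1, 35 in Sod2 and 1 in Prdx5. The other Txnrd1 window and those of Txn1 and Gpx1 did not hold these letters. The G and C content of the 8 windows ran from 43.7% to 72%. Of 44 other defence genes with a window, 10 (22.7%) held the element in any of their windows, among them Nfe2l2, which encodes Nrf2 itself. A match of letters is not a binding site.

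The peroxidase gene Prdx5 was far above its control pool at both times and stood higher at 6 h. Its product, found in mitochondria, peroxisomes and cytosol, reduces hydrogen peroxide, organic peroxides and peroxynitrite with electrons from thioredoxin. At 6 h the fluor and flip arrays gave 3.56 and 2.64 in rat 2, 2.94 and 2.45 in rat 4, and 2.71 and 2.39 in rat 6. At 2 h they gave 1.84 and 1.69 in rat 1, 1.58 and 1.41 in rat 2, and 1.67 and 0.71 in rat 3. All 12 arrays lay above 0, and every array at 6 h lay above every array at 2 h. The mean was 2.78 ± 0.28 at 6 h (SD, n = 3; 6.88-fold) and 1.48 ± 0.29 at 2 h (2.80-fold). Among 3939 genes this was the second highest mean at 6 h and the sixth highest at 2 h, counted on the values as deposited.

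Gpx1 encodes the selenium-dependent cytosolic glutathione peroxidase, which is abundant in red cells as well as leukocytes. Its ratios depended on the orientation of the array more than those of any other member. The fluor arrays of rats 2, 4 and 6 at 6 h gave 0.52, 0.50 and 0.40, and the flip arrays -0.30, -0.18 and -0.35. At 2 h the fluor arrays of rats 1, 2 and 3 gave 0.64, 1.05 and 0.86, and the flip arrays -0.0071, 0.39 and -0.15. At 6 h the orientations fell on opposite sides of 0 in each rat, and at 2 h in 2 of the 3. The rat means were 0.11, 0.16 and 0.022 at 6 h and 0.31, 0.72 and 0.36 at 2 h, without overlap, with averages of 0.10 ± 0.07 at 6 h and 0.46 ± 0.22 at 2 h.

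Thioredoxin (Txn1), the small dithiol protein that recharges peroxiredoxins, had small ratios that lay above 0 on all 12 arrays. Its rat means were 0.23, 0.16 and 0.25 at 6 h and 0.095, 0.13 and 0.041 at 2 h, averaging 0.21 ± 0.05 and 0.09 ± 0.04. The 6 h rats lay above the 2 h rats. Thioredoxin reductase 1 (Txnrd1), the cytosolic selenoenzyme that reduces thioredoxin with NADPH, showed the other order, with 0.30, 0.17 and 0.26 at 6 h and 0.40, 0.35 and 0.44 at 2 h. It averaged 0.24 ± 0.07 at 6 h (1.18-fold) and 0.40 ± 0.04 at 2 h (1.32-fold), and lay above 0 on 11 of 12 arrays. Its fluor arrays averaged 0.41 at 6 h and 0.64 at 2 h, its flip arrays 0.077 and 0.16.

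Gclm encodes the modifier subunit of glutamate-cysteine ligase, the rate-limiting enzyme of glutathione synthesis, and its element in the promoter window is shown above. The rats stood at -0.030, 0.13 and -0.14 at 6 h and at 0.27, 0.45 and 0.42 at 2 h. The groups did not overlap, and the 6 h rats lay on both sides of 0, with a mean of -0.016 ± 0.135 at 6 h against 0.38 ± 0.09 at 2 h (1.30-fold). All 6 arrays at 2 h and 4 of 6 at 6 h were above 0.

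Oplah encodes 5-oxoprolinase, which returns the 5-oxoproline released in the gamma-glutamyl cycle to glutamate, a building block of glutathione. It was below control at 6 h in every rat and on both orientations alike. The fluor and flip arrays gave -1.10 and -1.11 in rat 2, -1.40 and -1.63 in rat 4, and -1.10 and -1.06 in rat 6 at 6 h. At 2 h they gave -0.27 and -0.28 in rat 1, -0.26 and 0.18 in rat 2, and -0.60 and -0.65 in rat 3. The 2 times did not overlap on any array. The mean of -1.23 ± 0.25 at 6 h (2.35-fold lower than control) was the third lowest of 3939 genes, against -0.31 ± 0.29 at 2 h.

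Gstt1, a theta-class glutathione transferase that conjugates small electrophiles, lay below 0 on all 12 arrays. Its rats stood at -0.74, -0.54 and -0.65 at 6 h and at -0.71, -0.73 and -1.21 at 2 h, and the groups overlapped. The means were -0.64 ± 0.10 at 6 h (1.56-fold lower than control) and -0.88 ± 0.28 at 2 h (1.84-fold lower), with 2 h rat 3 the lowest. Blvra, the biliverdin reductase that makes the antioxidant bilirubin from the product of haem oxygenase, was likewise below 0 on all 12 arrays. Its rats gave -0.82, -0.93 and -0.76 at 6 h. At 2 h rats 1 and 2 gave -0.66 and -0.84, and rat 3 had -1.09 on its fluor array and -0.92 on its flip array. The 2 times overlapped and their means of -0.84 ± 0.09 at 6 h and -0.83 ± 0.17 at 2 h nearly coincided (1.79-fold and 1.78-fold lower than control).

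Sod2, the mitochondrial manganese superoxide dismutase and a textbook target of NF-kappaB in inflammation, was near 0 here. Its rats stood at 0.20, 0.035 and 0.14 at 6 h and at 0.17, 0.0055 and 0.0078 at 2 h. The means of 0.12 ± 0.08 at 6 h and 0.06 ± 0.09 at 2 h were about as large as their spread, and 10 of 12 arrays were above 0. The whole of the 9 genes thus held ratios from strongly positive (Prdx5) to strongly negative (Oplah, Blvra, Gstt1).

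**Figure D1:**
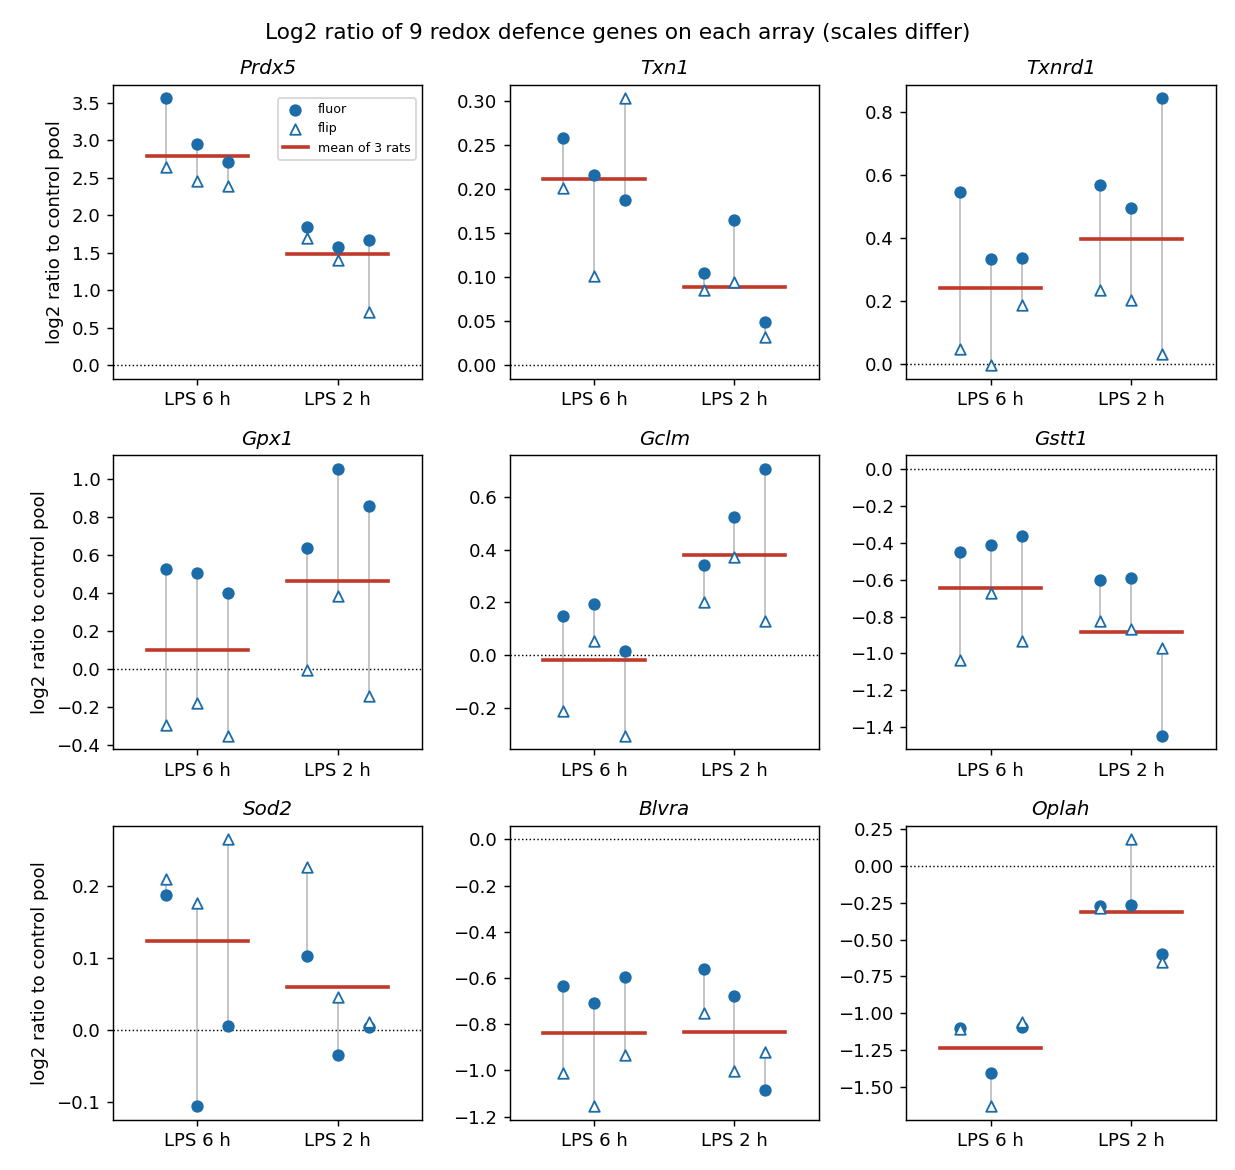
Log2 ratio to the control pool (y axis, own scale per gene) of the 9 members on each array at LPS 6 h (left) and LPS 2 h (right). Filled circles are fluor arrays, open triangles flip arrays of the same rat joined by a grey line, and red bars the mean of 3 rats. Prdx5 lay above 0 on all 12 arrays, Gstt1 and Blvra below 0 on all 12, and the 2 orientations of Gpx1 parted most.

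Counted with limma over all genes (Benjamini-Hochberg adjusted p under 0.05), 3 members stood higher than control at 6 h (Prdx5, Txn1 and Txnrd1) and 3 lower (Gstt1, Blvra and Oplah), where 8.3% of all genes were higher and 10.7% lower. At 2 h 4 were higher (Prdx5, Txnrd1, Gpx1 and Gclm) and 2 lower (Gstt1 and Blvra), where 9.34% of all genes were higher and 9.82% lower. Nothing can be read from these counts, since the members were picked from the same ratios. Their median was 0.099 at 6 h and 0.089 at 2 h, against 0.0069 and -0.0070 over all genes.

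The difference between the times is taken from the same ratios that chose the members, so it is given with its standard error as a description, without a test. The same holds for the statements above on whether the rats of the times overlapped. The share of all genes without overlap between the times was not counted. Prdx5 had the largest difference of the 9, 1.30 ± 0.18 higher at 6 h than at 2 h (SE), the second highest of 3939 genes. With the deposited direction kept, it lay between 0.98 and 1.44 over 15 alternatives. With the flip arrays multiplied by -1 it was 0.075. Oplah had the lowest, -0.92 ± 0.17, the sixth lowest of the 3939 genes.

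Gclm differed by -0.39 ± 0.08 (SE) and Gpx1 by -0.36 ± 0.11, both lower at 6 h. Txnrd1 differed by -0.16 ± 0.05 and Txn1 by 0.12 ± 0.05, so the reductase and its substrate had differences of opposite sign. Gstt1 differed by 0.24 ± 0.14, Sod2 by 0.064 ± 0.065 and Blvra by -0.0068 ± 0.09, the last 2 within 1 SE of 0. Counted with limma, 1 member (Prdx5) passed as higher at 6 h and 0 as lower, where 0.33% of all genes were higher and 0.178% lower. Of the 9 members 6 had an unadjusted p under 0.05, against 14.4% of all genes. Nothing can be read from these counts either, for the same reason.

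**Figure D2:**
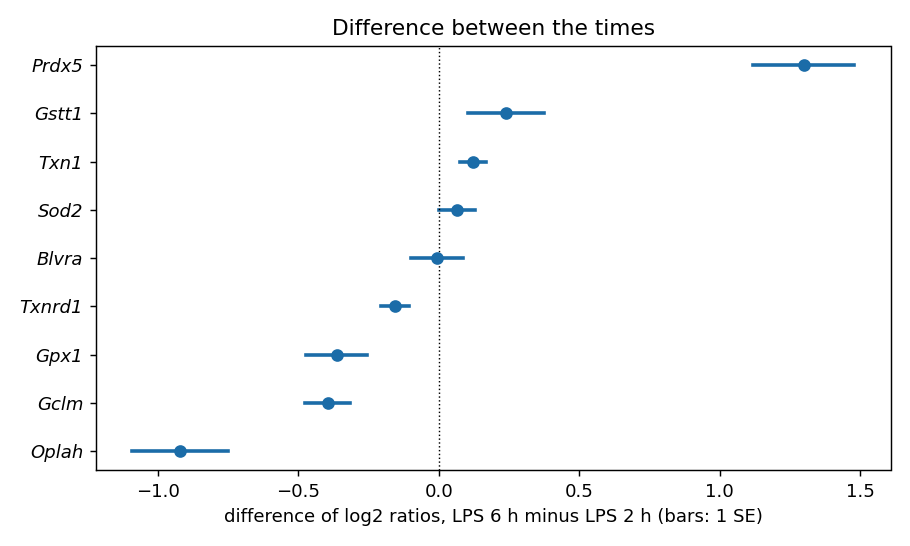
Difference of the log2 ratios, LPS 6 h minus LPS 2 h (x axis), for the 9 members, with bars of 1 SE of the limma fit on either side. Prdx5 lies at 1.30 and Oplah at -0.92, and the bar of Blvra lies on both sides of 0.

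The orientation term, the mean of the fluor ratio and the flip ratio times -1, measures what the 2 orientations of a rat do not share. It comes from the same arrays that chose the members, so it too is a description. It passed limma's threshold in 37.1% of all genes at 6 h and in 14.2% at 2 h, and in 4 and 2 of the 9 members, counts from which nothing is read. Gpx1 had 0.38 at 6 h and 0.39 at 2 h, the first of which exceeds its mean ratio at 6 h. Prdx5 had 0.29 at 6 h and 0.21 at 2 h, small beside its ratios. Gstt1 had 0.24 at 6 h and 0.0040 at 2 h, Blvra 0.19 and 0.058, and Txnrd1 0.16 and 0.24. Gclm had 0.14 at both times, Oplah 0.033 at 6 h and -0.064 at 2 h, Txn1 0.0093 and 0.017, and Sod2 -0.094 and -0.035. Under the other reading of the flip arrays these would be the responses, and Gstt1, Blvra and Oplah would then not be lower than control at 6 h.

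The genes with the most similar values to each member were found by the root mean square difference of log2 ratios over the 6 rats. Prdx5 had no close neighbour: the granzyme gene Gzmc came nearest at 0.75 (1.87 at 6 h and 1.17 at 2 h), then the aldolase gene Aldoc at 0.85. Oplah was also apart, with the elongation factor gene Eef2 at 0.35 (-0.91 at 6 h and -0.63 at 2 h) and Rps7 at 0.35. Txnrd1 lay nearest to Odc1, the ornithine decarboxylase gene (0.076), Gpx1 to Dpf2 (0.068), and Gclm to Eif4b (0.045). Blvra lay nearest to Prkcb, the protein kinase C beta gene (0.065), Gstt1 to S100a10 (0.16) and RT1-DMb (0.19), Txn1 to Pex2 (0.032) and Sod2 to Serpina1 (0.033).

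A list of 120 genes of the same pathways held 62 measured genes, the 9 members and 53 others. The list was written with earlier results of these data known. Of the 53 others 4 rose and 4 fell at 6 h, and 12 rose and 4 fell at 2 h, to be read beside the shares over all genes given above. Their median ratio was 0.017 at 6 h and 0.0011 at 2 h, next to 0.0069 and -0.0070 for all genes. None of the 53 passed between the times in limma, while 9 had an unadjusted p under 0.05, against 14.4% of all genes. In the fit of all arrays with an orientation term, in which rats were a random block, 3 passed, against 131 of all 3939 genes. With flip arrays alone the 2 h calls of Anpep, Fth1, Glrx3, Gpx4, Gsta2, Gstm2, Gstt3, Mafg, Prdx3, Taldo1 and Xdh ended, and the 6 h calls of Fth1, Gstm2 and Gstm5. Subtracting neighbouring probes ended the calls of Gss, Gstt3 and Mafg at 2 h and of Gstm5 at 6 h. Fitting only the 3 rats of the time ended those of Gstt3, Mafg and Xdh at 2 h, and scaling the arrays that of Gstm2 at 6 h. Under the other reading of the flip arrays, 2 of the 8 calls at 6 h passed with the same sign and 1 with the other, and 4 of the 16 at 2 h with the same sign.

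**Figure D3:**
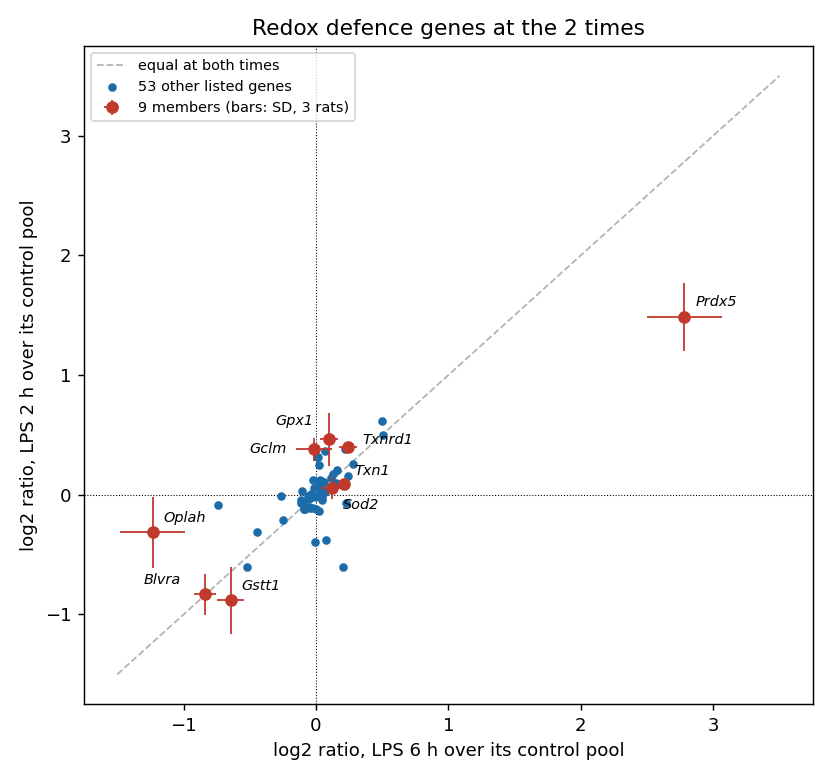
Mean log2 ratio to the control pool at LPS 6 h (x axis) and LPS 2 h (y axis) for the 9 members (red, bars SD over 3 rats) and 53 other genes of the defence lists (blue), with the line of equal ratios dashed. Prdx5 lies far to the upper right, and Oplah far to the left of the dashed line.

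Among the other peroxiredoxins only the mitochondrial Prdx3 passed, and it fell, by 0.25 on the log2 scale at 6 h (mean -0.25 ± 0.07, adjusted p = 0.00468) and at 2 h (-0.21 ± 0.05, adjusted p = 0.0103, and 0.0529 without 2 h rat 1). At 6 h its fluor arrays alone gave -0.085 (adjusted p = 0.108) and its flip arrays -0.41, and at 2 h its flip arrays alone had adjusted p = 0.0761. Prdx2, the abundant red cell form, had rat means of 0.43, 0.40 and -0.10 at 6 h, and of 0.29, 0.52 and -0.35 at 2 h, and Prdx6 stood at -0.059 at 6 h and -0.031 at 2 h. The 4 measured peroxiredoxins thus had no common direction.

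In the thioredoxin and glutaredoxin list 0 of 7 other genes passed at 6 h in limma and 2 passed at 2 h. Txnip, which encodes the protein that binds and inhibits thioredoxin, fell at 2 h, with -0.28, -0.53 and -0.36 in the 3 rats (mean -0.39 ± 0.13, adjusted p = 0.00397) against 0.046, -0.094 and 0.035 at 6 h. It lay below 0 on all 6 arrays at 2 h, its call held in all 16 alternatives that keep the deposited direction, and its difference of 0.39 between the times had adjusted p = 0.0807. Glrx3, a glutaredoxin that carries iron-sulphur clusters, rose at 2 h (0.21 ± 0.09, adjusted p = 0.0248), but not without rat 2 (0.127) or rat 3 (0.0848). The mitochondrial pair Txn2 and Txnrd2 stood at 0.045 and -0.017 at 6 h and at -0.021 and 0.058 at 2 h.

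Of the 7 other measured genes of glutathione synthesis 1 fell and 0 rose at 6 h in limma, and 1 rose and 1 fell at 2 h. Gss, the glutathione synthetase that joins glycine in the final step, fell at 6 h, at -0.43, -0.44 and -0.46 in the 3 rats (mean -0.44 ± 0.02, adjusted p = 0.000146). At 2 h it stood at -0.30, -0.29 and -0.35 (mean -0.31 ± 0.03, adjusted p = 0.000876). All 12 arrays were below 0 and no single rat ended either call, but with neighbouring probes subtracted the 2 h value was -0.14 (adjusted p = 0.0873). Gclc, the catalytic subunit that pairs with Gclm, stood at -0.049 ± 0.053 at 6 h and -0.038 ± 0.029 at 2 h and did not pass. Anpep, an aminopeptidase that also splits cysteinylglycine, rose at 2 h (0.25 ± 0.12, adjusted p = 0.0194, and 0.0748 without rat 2).

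Of 3 other glutathione peroxidase genes 0 passed at 6 h in limma. Gpx4, which reduces lipid peroxides in membranes, rose at 2 h (0.32 ± 0.07, adjusted p = 0.0337) but lost that call with any 1 of the 2 h rats left out (adjusted p 0.0793 to 0.166). It stood at 0.010 ± 0.226 at 6 h. Gpx3, the plasma form, stood at -0.044 at 6 h and -0.11 at 2 h.

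The glutathione transferases went both ways. Of 12 other genes 2 rose and 2 fell at 6 h, and 3 rose and 1 fell at 2 h. Gstt2, of the same theta class as Gstt1, rose by 0.28 ± 0.09 at 6 h (adjusted p = 0.0154) and 0.26 ± 0.13 at 2 h (adjusted p = 0.0216) and lay above 0 on all 12 arrays, where Gstt1 lay below 0 on all 12. The call of Gstt2 ended without 6 h rat 2 (0.0916) or 4 (0.0848) at 6 h, and without 2 h rat 2 (0.110) or 3 (0.0757) at 2 h. Gstt3 rose at 2 h (0.17 ± 0.09, adjusted p = 0.0405), a call that ended without 6 h rat 2 (0.0719) or any 2 h rat (0.0521 to 0.184), and averaged 0.13 ± 0.08 at 6 h.

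Mgst2, a membrane-bound transferase that also makes leukotriene C4, fell at 6 h, with -0.29, -0.30 and -0.21 in the 3 rats (mean -0.27 ± 0.05, adjusted p = 0.00205), and stood at -0.014 ± 0.037 at 2 h. Its call held in 16 of 16 alternatives that keep the deposited direction. Gstm2 fell at both times (-0.52 ± 0.18 at 6 h, adjusted p = 0.0178, and -0.60 ± 0.29 at 2 h, adjusted p = 0.0114), but its flip arrays alone averaged -0.094 and -0.096. At 6 h its call also ended without rat 2 (0.0625), 4 (0.0568) or 6 (0.0810). Gstm5 rose at 6 h (0.15 ± 0.02, adjusted p = 0.0271, and 0.0865 to 0.133 without 1 of the 6 h rats) and Gsta2 at 2 h (0.37 ± 0.15, adjusted p = 0.0156, 0.0837 without rat 2 and 0.0566 without rat 3). Genes of 1 class are alike in sequence, and no probe was matched to transcripts here, so signal shared between them was not tested.

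Nfe2l2, the gene of Nrf2, rose at both times. Its rats stood at 0.63, 0.40 and 0.47 at 6 h (mean 0.50 ± 0.12, adjusted p = 0.00747) and at 0.76, 0.72 and 0.36 at 2 h (mean 0.61 ± 0.22, adjusted p = 0.00384), and all 12 arrays were above 0. Without 6 h rat 2 the 6 h value was 0.43 (adjusted p = 0.0561). Of the 9 measured genes of Nrf2 control and further targets, 2 rose and 0 fell at 6 h in limma, and 4 rose and 0 fell at 2 h, with medians of 0.073 and 0.082. Nfe2l2 itself is counted among those that rose. Over all genes 8.3% were higher and 10.7% lower at 6 h, and 9.34% and 9.82% at 2 h. Ephx1 (-0.38 ± 0.22) and Osgin1 (-0.12 ± 0.12) had means below 0 at 2 h without passing, and stood at 0.073 ± 0.398 and 0.00065 ± 0.099 at 6 h. Ephx1 depended on the array orientation, with 3 of its 6 arrays above 0 at each time. Its orientation term was -1.04 at 6 h and -1.01 at 2 h, larger in size than its means.

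Fth1, the ferritin heavy chain that stores iron, rose at 6 h (0.51 ± 0.25, adjusted p = 0.00902) and at 2 h (0.50 ± 0.11, adjusted p = 0.0108), but its fluor arrays averaged 0.94 and 0.87 and its flip arrays 0.069 and 0.12. The metallothionein gene Mt2A rose at 2 h (0.38 ± 0.19, adjusted p = 0.0170, but 0.0552 without rat 1 and 0.0745 without rat 2), against 0.22 ± 0.14 at 6 h, which with single rats left out passed only without 2 h rat 2 (0.0473). Mafg, a small Maf partner of Nrf2, passed at 2 h (0.14 ± 0.08, adjusted p = 0.0403) but with no single rat left out (0.0544 to 0.159), and at 6 h (0.12), with single rats left out, only without 2 h rat 2 (0.0306). The quinone reductase Nqo1, a classical Nrf2 target, stood at 0.047 ± 0.100 at 6 h and -0.045 ± 0.059 at 2 h and did not pass.

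Of the 2 other haem genes Hmox1, the inducible haem oxygenase upstream of Blvra, had rat means of 0.46, 0.093 and 0.12 at 6 h, and of -0.013, -0.14 and -0.048 at 2 h. It did not pass at 6 h (0.23 ± 0.20, adjusted p = 0.0658). Like Sod2, the genes Sod1, Sod3 and Cat (catalase) did not pass at either time. Of the 4 measured genes of NADPH supply 0 passed at 6 h in limma, and 1 rose and 0 fell at 2 h. Those that did not pass were Tkt (0.20 ± 0.09 at 6 h and -0.61 ± 0.79 at 2 h), Idh1 (-0.74 ± 1.07 and -0.084 ± 0.071) and Me1 (0.028 ± 0.038 and 0.030 ± 0.026). Taldo1, the transaldolase of the pentose phosphate pathway that supplies NADPH, rose at 2 h (0.31 ± 0.06, adjusted p = 0.00354), where its fluor arrays gave 0.51 and its flip arrays 0.12 (adjusted p = 0.231 alone). It averaged 0.017 ± 0.085 at 6 h, where its fluor arrays gave 0.29 and its flip arrays -0.26. Xdh, the xanthine oxidoreductase that can itself make superoxide, passed at 2 h (0.12 ± 0.03, adjusted p = 0.0328), but not without any 2 h rat (0.0731 to 0.131), 6 h rat 2 (0.0610) or 6 h rat 6 (0.0585). It stood at 0.031 at 6 h, and the oxidase subunits Cyba and Rac2 did not pass at either time.

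**Figure D4:**
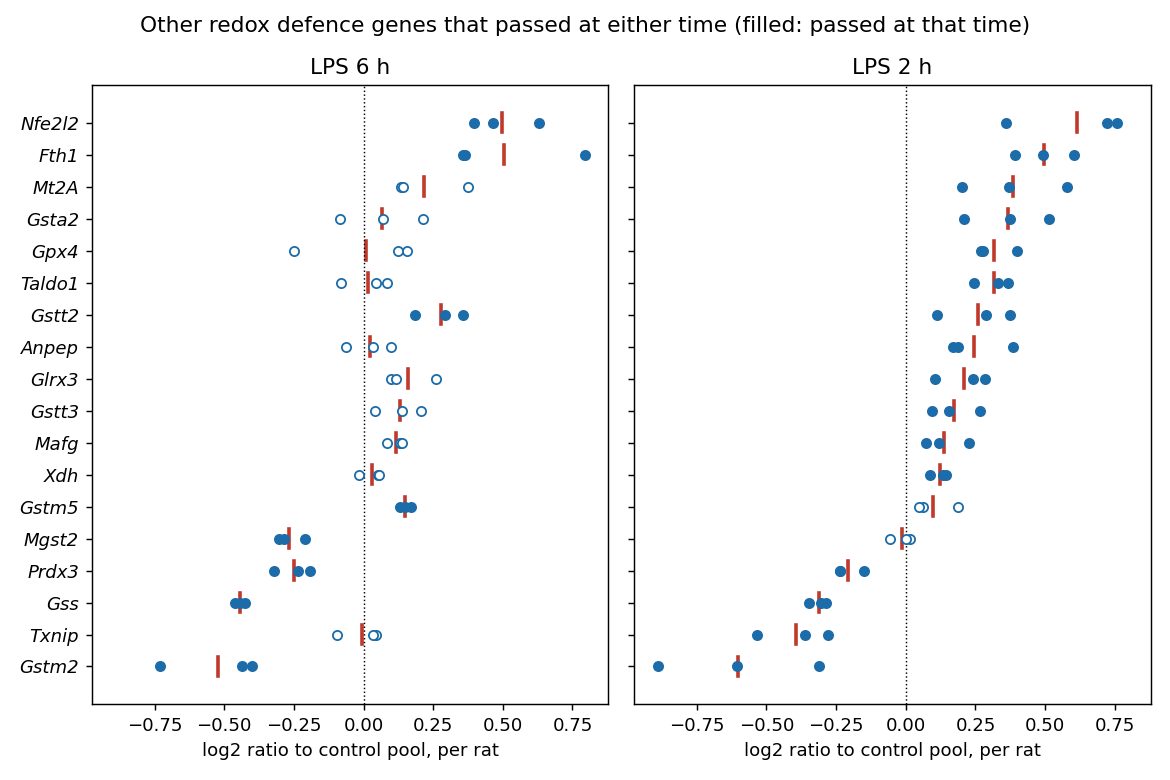
Log2 ratio of single rats to the control pool (x axis) at LPS 6 h (left) and LPS 2 h (right) for the 18 other genes of the defence lists that passed limma's threshold at either time. Filled points mark a gene that passed at that time, open points one that did not, and red bars the mean of 3 rats; Nfe2l2 and Fth1 lie highest and Gss lies tightly below 0 at both times.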

How the data were processed

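The authors deposited the values as a log2 ratio for each probe of each array. Base 2 was read from the numbers: for ratios under 5, 2 to that power gave multiples of 0.0001, within 0.05 of a step, for 100% of values, against at most 12.9% for other bases. The sources used here do not state dyes, scanner, background correction or normalization. Array medians lay between -0.020 and 0.0083 and array SDs between 0.27 and 0.48. Without intensities, the number of arrays limits the precision. A value repeated over 242 to 298 probes occurred per array, never at a member.

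Probes with 1 symbol in the 2007 platform annotation were named (4190; 46 had several, 2964 none), and 236 genes with several probes were averaged. Rat means were fitted with limma 3.58.1 in R 4.3.3, both times in 1 model of group means, after the code was tested on simulated data, and p-values were adjusted over 3939 genes. They measure the spread between these rats only. The members and lists were chosen with earlier results of these data known. The genes named are the members, listed defence genes past the threshold and the nearest genes to each member. Prdx2, Prdx6, Txn2, Txnrd2, Gclc, Gpx3, Nqo1, Ephx1, Osgin1, Hmox1, Sod1, Sod3, Cat, Tkt, Idh1, Me1, Cyba and Rac2 were added after their values were seen.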

Additional observations from a re-analysis of the deposited data

Results flagged for a closer look

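Prdx5 was singled out because its ratio stood 1.30 higher at 6 h than at 2 h on the log2 scale (limma adjusted p = 0.0408), with each 6 h rat above each 2 h rat. As Prdx5 was chosen from the same ratios, that p supports nothing. The call also ended in 11 of 15 alternatives that keep the deposited direction, among them each of the 6 fits that leave out 1 rat (adjusted p 0.0561 to 0.115). With the flip arrays multiplied by -1 the difference was 0.075 (adjusted p = 0.793). The 2 control pools differ between the times as well, and their part was not tested.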

How the results depend on the processing

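Counts of genes past the threshold depended on the array orientation used. With the flip arrays multiplied by -1, 1461 genes passed at 6 h and 559 at 2 h, against 749 and 755 as deposited, with 21 and 9 other listed genes and 4 and 2 members, and between the times 0 genes and 0 members passed in limma, where the deposited direction gave 20 and 1. Among the members that reading turned the sign of Gstt1 (0.24 at 6 h, 0.0040 at 2 h), Blvra (0.19, 0.058), Oplah (0.033 at 6 h), Sod2 (-0.094, -0.035) and Gclm (0.14 at 6 h). Among the 18 other listed genes that passed at either time, it turned these values past the threshold under either reading: Gss (0.074 at 6 h), Mgst2 (0.040 at 6 h), Prdx3 (0.16 at 6 h), Nfe2l2 (-0.067 at 6 h), Mt2A (-0.11 at 6 h, -0.065 at 2 h) and Gstt2 (-0.023 at 2 h). Fluor arrays alone gave 1202 genes and 18 other listed genes at 6 h, 1142 genes at 2 h, and 4 genes with 0 members between the times. Flip arrays alone gave 16 other listed genes at 6 h, 336 genes, 3 members and 5 other listed genes at 2 h, 5 genes with 0 members between the times, and Taldo1 at -0.26 at 6 h. With all 12 arrays, an orientation term and rats as a random block, 16 other listed genes passed at 6 h, and 131 genes, 3 members and 3 other listed genes between the times. Only the 3 rats of the time gave 500 genes at 2 h. Between the times, quantile normalization gave 8 genes and 0 members, scaling to 1 spread 0 members and 1 other listed gene, subtracting neighbouring probes 2 members, and robust eBayes 0 members. Leaving out 1 rat gave 306 to 927 genes and 4 to 10 other listed genes at 6 h, 323 to 668 and 7 to 15 at 2 h, and 2 to 31 genes and 0 to 1 members between the times. The cause was not tested. No paired analysis was possible because the times share only 1 rat number.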
